A study of Mus musculus with 9 samples.

Results

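Genes of the p53-family damage response, 10 in number, were followed through fractions of mouse oocytes. They were taken by symbol from the authors' table: Trp53, Trp63, Chek2, Cdkn1a, Mdm2, Bbc3, Pmaip1, Gadd45a, Aen and Bax, all 10 of which were among its 23235 genes. The oocytes came from day 21 mice, either wild type (WT) or without MTR4 (MTR4-null), the RNA helicase that hands nuclear transcripts to the exosome for degradation. Each oocyte had been divided by micromanipulation into nucleus and cytoplasm, and 10 nuclei or 10 cytoplasms were pooled per library before total RNA was sequenced after removal of ribosomal RNA. The labels list 9 libraries, 3 of WT nucleus and 2 each of WT cytoplasm, MTR4-null nucleus and MTR4-null cytoplasm. How the null allele was made, which promoter drove any recombinase and how many mice were pooled are not stated in the labels.

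The table holds 4 columns of FPKM (fragments scaled by transcript length and by all mapped fragments), 1 for each genotype and compartment. Every value below is therefore the authors' value for a whole group. The spread between libraries cannot be seen, so no test was possible and no error can be attached to a difference. Differences are given on log2(FPKM + 1), a scale that understates changes of genes with low values, and a gene is counted as higher or lower when it is at least 2-fold apart on that scale. Shares over all genes refer to the 14270 genes with 1 FPKM or more in at least 1 column. Because FPKM is relative to the rest of a library, less RNA per oocyte and a smaller share of a transcript cannot be told apart. The columns also differ in make-up. Small RNA genes held 57.7% of summed FPKM in WT nuclei, 53.5% in MTR4-null nuclei, 4.09% in WT cytoplasms and 39.0% in MTR4-null cytoplasms. One of the alternative scalings below sets the columns to the sum without these genes.

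In oocytes, damage signalling runs through the kinase CHK2, encoded by Chek2, to p53 (Trp53) and to its relative p63 (Trp63), whose transactivating form is the main guard of oocyte genome quality in early follicles. MDM2 marks p53 for degradation and is itself a p53 target. Further downstream stand p21 (Cdkn1a), which blocks the cell cycle, the stress protein GADD45A, the nuclease AEN, and the death factors PUMA (Bbc3), NOXA (Pmaip1) and BAX, which act at mitochondria. Both family proteins are controlled largely at the protein level, by phosphorylation and turnover, which RNA levels do not report.

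The cells and labels were checked first. All 13 oocyte markers were at 23.4 FPKM or more in every column. Skiv2l2, the older symbol of the Mtr4 gene, stood at 16.2 FPKM in WT nuclei, 2.91 in MTR4-null nuclei, 21.6 in WT cytoplasms and 2.51 in MTR4-null cytoplasms. Of 14 granulosa markers, 7 to 12 reached 1 FPKM, with summed FPKM of 83.8 in WT nuclei, 62.6 in MTR4-null nuclei, 64.8 in WT cytoplasms and 48.4 in MTR4-null cytoplasms. Amh, one of them, was listed at 0 in WT nuclei. The 8 markers of theca and stroma summed to 5.57, 13.0, 2.55 and 4.66 FPKM in the same order. None of 6 blood and immune markers reached 1 FPKM in any column.

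At the head of the pathway, both transcription factors were present in every fraction at moderate level, with the p63 transcript between 9.98 and 12.2 FPKM. Trp53 stood at 12.7 FPKM in WT nuclei, 23.8 in MTR4-null nuclei, 20.7 in WT cytoplasms and 20.04 in MTR4-null cytoplasms. The WT nucleus is the low column, and the other 3 lie close together. The log2 difference between genotypes was 0.86 in the nucleus, short of 2-fold, and -0.04 in the cytoplasm, where several ways of scaling turned its sign (up to 0.53). Trp63 stood at 10.6, 9.98, 10.7 and 12.2 FPKM in the same order, with genotype differences of -0.08 in the nucleus and 0.17 in the cytoplasm. Its level placed it above 48.7% to 64.5% of the genes kept in each column, so it was a mid-range transcript of these oocytes.

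Chek2, the kinase that activates both factors, was the member with the largest nuclear difference downwards. It stood at 9.40 FPKM in WT nuclei, 1.38 in MTR4-null nuclei, 2.15 in WT cytoplasms and 2.85 in MTR4-null cytoplasms. Only the WT nucleus was high, and the other 3 columns were within 1.38 to 2.85 FPKM. The nuclear difference was -2.12 on the log2 scale, 14.7% of the WT FPKM, and lay between -2.68 and -2.12 over the pseudocount and scaling alternatives. In the cytoplasm the difference was 0.29. In WT the nucleus held 4.38 times the cytoplasmic FPKM, whereas in MTR4-null it held 48.6% of it.

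Mdm2, the ubiquitin ligase that restrains p53, was the most abundant member in every column. It stood at 49.1 FPKM in WT nuclei, 42.2 in MTR4-null nuclei, 56.04 in WT cytoplasms and 28.96 in MTR4-null cytoplasms, above 83.1% to 88.4% of the genes kept. The MTR4-null cytoplasm was the low column, at 51.7% of WT and a log2 difference of -0.93, against -0.22 in the nucleus. Over all genes kept, the median cytoplasmic difference was -0.26, and Mdm2 lay between -0.95 and -0.35 over the alternatives, so it did not reach 2-fold under any of them. The value of -0.35 came from rescaling to the sum without small RNA genes. Between genotypes, the share of those genes differed more in the cytoplasms than in the nuclei.

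**Figure D1:**
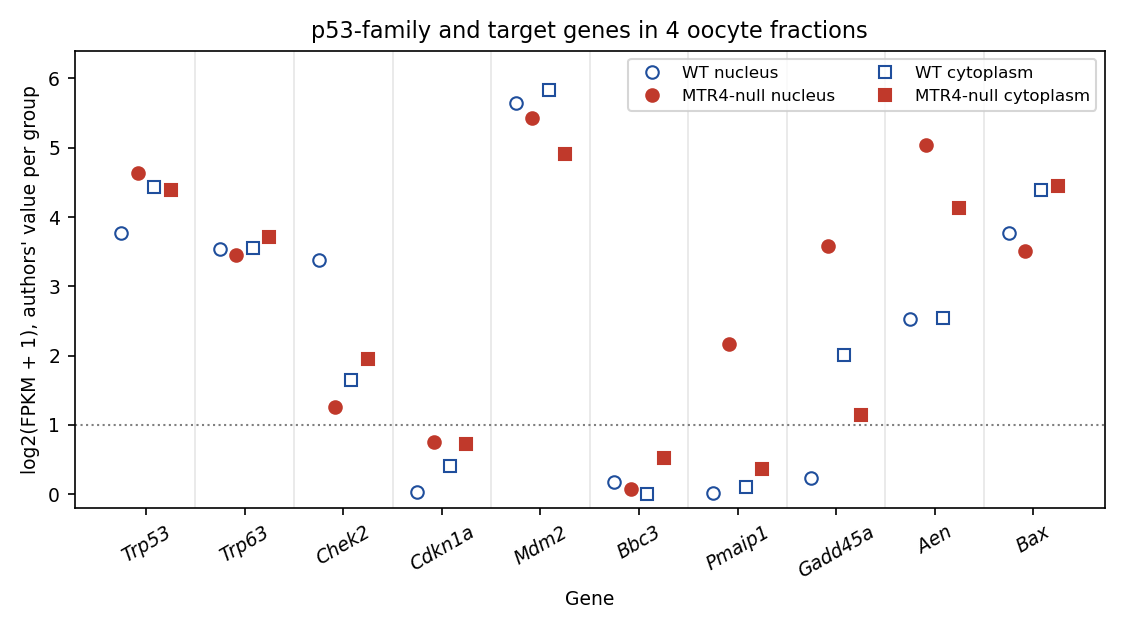
Level of each of the 10 genes in the 4 deposited columns, as log2(FPKM + 1) on the vertical axis, with circles for nucleus, squares for cytoplasm, open blue symbols for WT and filled red symbols for MTR4-null; the dotted line marks 1 FPKM. Mdm2 is highest throughout, Cdkn1a and Bbc3 stay under the line in all columns, and Aen, Gadd45a and Pmaip1 are highest in MTR4-null nuclei.

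The downstream genes are known as p53 targets. Matches to the p53 half-site, a part of the binding sequence and not the whole, are shown for the members whose upstream DNA holds one. The consensus p53 half-site was searched with 0 mismatches and on both strands (it reads the same on each). The windows were the 250 bases before the annotated starts of 8 members in the RefSeq promoter table of build GRCm38.p6. Trp63 and Pmaip1 were not among these 8. Member windows on a chromosome set aside by plan were left out, though the share over all genes includes it. The absence of Pmaip1 therefore does not show that it had no entry. A half-site occurred in 6 of these 8 genes, 75.0%, against 8.20% of all 27025 genes in that table, or 7.13% of its 32851 windows. These members were chosen as genes of the p53 pathway, so the share describes the list. Each match is printed 5′ to 3′ on the gene's strand with its flanks, in lower case with the half-site in capitals. A match is a description of the letters and does not show binding.
Aen, chr7:78895912-78895971, plus strand, 121 bases before the second of its starts: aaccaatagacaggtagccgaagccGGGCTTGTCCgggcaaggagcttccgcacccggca
Gadd45a, chr6:67037413-67037472, minus strand, 40 bases before its start: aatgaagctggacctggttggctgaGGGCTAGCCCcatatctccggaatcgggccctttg
Mdm2, chr10:117710910-117710969, minus strand, 186 bases before its start: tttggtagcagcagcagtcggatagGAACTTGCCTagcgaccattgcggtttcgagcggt
Cdkn1a, chr17:29090881-29090962, plus strand, with 2 half-sites, 73 and 51 bases before the first of its starts: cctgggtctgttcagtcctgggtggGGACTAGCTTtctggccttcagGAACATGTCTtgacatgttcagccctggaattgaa
Bax, chr7:45467065-45467124, minus strand, 201 bases before its start: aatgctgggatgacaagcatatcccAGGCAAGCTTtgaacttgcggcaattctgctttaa
Trp53, chr11:69580259-69580318, plus strand, 75 bases before its start: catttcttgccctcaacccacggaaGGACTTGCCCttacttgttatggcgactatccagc
Carriers of a half-site took different courses, and whether the sequence goes with a course was not tested. Aen was higher in both MTR4-null compartments, Gadd45a in the nucleus but not in the cytoplasm, and Mdm2, Bax and Trp53 were less than 2-fold apart in either. Cdkn1a, with 2 half-sites, was under 2-fold in both (0.72 and 0.32) and under 1 FPKM in every column.

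Aen, which encodes an apoptosis-enhancing nuclease, was the only member to stand higher by at least 2-fold in both compartments of MTR4-null oocytes. It stood at 4.76 FPKM in WT nuclei, 32.01 in MTR4-null nuclei, 4.85 in WT cytoplasms and 16.5 in MTR4-null cytoplasms. Both WT columns are alike and low, and both MTR4-null columns are high. The ratio was 6.73 in the nucleus and 3.39 in the cytoplasm, with log2 differences of 2.52 and 1.58. These lay between 2.23 and 2.72 and between 1.58 and 2.14 over the alternatives, past 2-fold under each.

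Gadd45a, a stress-induced inhibitor of growth, had the largest nuclear difference of the 10. It stood at 0.170 FPKM in WT nuclei, 11.03 in MTR4-null nuclei, 3.04 in WT cytoplasms and 1.20 in MTR4-null cytoplasms. Low in WT nuclei and high in MTR4-null nuclei, it ran the other way in the cytoplasm, where WT was the higher column. The differences of log2(FPKM + 1) were 3.36 in the nucleus and -0.88 in the cytoplasm, the latter short of 2-fold on that scale. In FPKM itself the WT cytoplasm held 2.54 times the MTR4-null value. With a pseudocount of 0.1 the cytoplasmic difference was -1.28. On the opposite strand the annotated RNA E230016M11Rik shares 337 of the 1764 exon bases of Gadd45a, or 19.1%, and stood at 1.33 FPKM in MTR4-null nuclei, was listed at 0 in WT nuclei, and stood at 0.207 in WT cytoplasms and 0.583 in MTR4-null cytoplasms. No source used here says whether fragments were assigned by strand, so reads from the shared bases cannot be told apart.

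Pmaip1 and Bbc3 are BH3-only death genes, whose proteins neutralize the survival members of the BCL2 family, and both were near the floor in WT. Pmaip1, encoding NOXA, stood at 0.0130 FPKM in WT nuclei, 3.50 in MTR4-null nuclei, 0.0765 in WT cytoplasms and 0.283 in MTR4-null cytoplasms. It reached 1 FPKM in MTR4-null nuclei alone and passed the filter on low values through that column, so its nuclear difference of 2.15 follows from passing. Bbc3, encoding PUMA, stood at 0.125 FPKM in WT nuclei, 0.0543 in MTR4-null nuclei and 0.429 in MTR4-null cytoplasms, and was listed at 0 in WT cytoplasms. It did not pass the filter, and no direction can be read at such levels.

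Cdkn1a, encoding the cell cycle inhibitor p21 and often used as the readout of p53 activity, did not pass the filter either. It stood at 0.0187 FPKM in WT nuclei, 0.677 in MTR4-null nuclei, 0.321 in WT cytoplasms and 0.653 in MTR4-null cytoplasms. Every column was under 1 FPKM, a level above at most 14.1% of the genes kept.

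Bax, whose protein opens the outer mitochondrial membrane, differed more by compartment than by genotype. It stood at 12.6 FPKM in WT nuclei, 10.4 in MTR4-null nuclei, 19.96 in WT cytoplasms and 20.9 in MTR4-null cytoplasms. Both cytoplasms are above both nuclei, and within a compartment the genotypes differed by -0.26 in the nucleus and 0.06 in the cytoplasm on the log2 scale.

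Counted together, 3 of the 10 members (Aen, Gadd45a and Pmaip1) were higher by at least 2-fold in MTR4-null nuclei, beside 23.9% of all genes kept, and 1, Chek2, was lower, beside 12.3%. In the cytoplasm 1 member, Aen, was higher, beside 15.0% of all genes, and 0 were lower, beside 21.4%. Cdkn1a and Bbc3 did not pass the filter behind the shares over all genes. Like for like, the counts are thus out of the 8 members kept. With so few members in a transcriptome where many genes differed, whether the counts depart from the background cannot be said. Over all 10 members, Cdkn1a and Bbc3 included, the median log2 difference was 0.32 in the nucleus and 0.21 in the cytoplasm. All genes kept had 0.21 in the nucleus and -0.26 in the cytoplasm. The split of all genes in the cytoplasm depended on scaling: centred by the median log ratio, 25.8% were higher and 6.18% lower. The members' nuclear counts stayed at 3 and 1 under every scaling, with Pmaip1, whose difference is tied to the filter, among the 3. Over those scalings 16.9% to 20.2% of all genes were higher and 14.6% to 17.6% lower. With the filter at 5 FPKM the members' nuclear counts were 2 and 1, beside 25.1% and 10.1%.

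**Figure D2:**
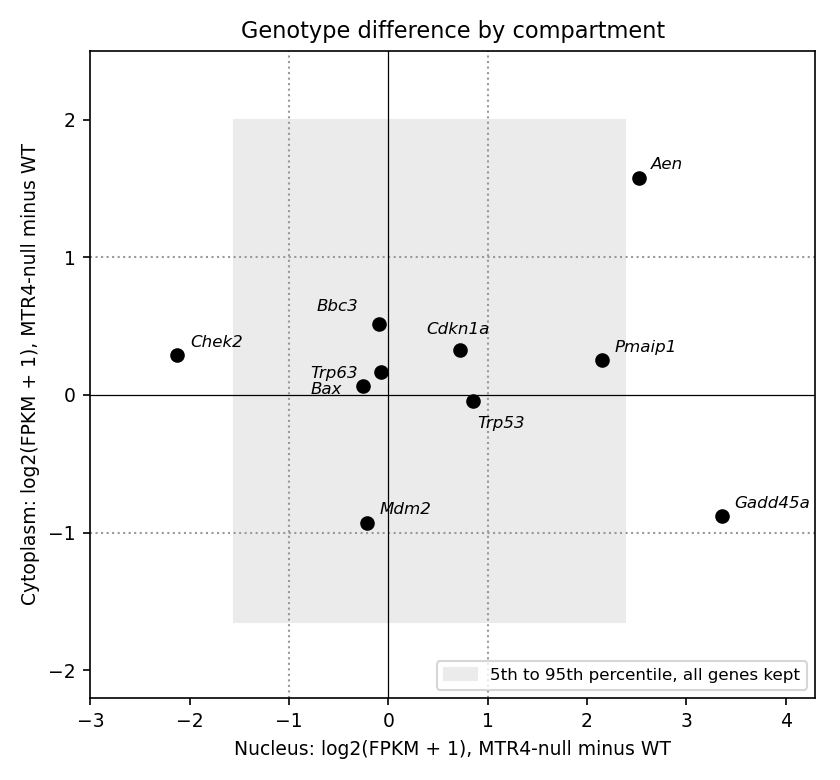
Difference in log2(FPKM + 1), MTR4-null minus WT, in the nucleus (horizontal axis) and the cytoplasm (vertical axis), 1 point per gene; dotted lines mark 2-fold and the grey box spans the 5th to 95th percentile of all 14270 genes kept on each axis. Aen lies to the right of the box and above 2-fold on the vertical axis, Gadd45a lies far right with a cytoplasmic value of -0.88, and Chek2 lies left at -2.12.

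**Figure D3:**
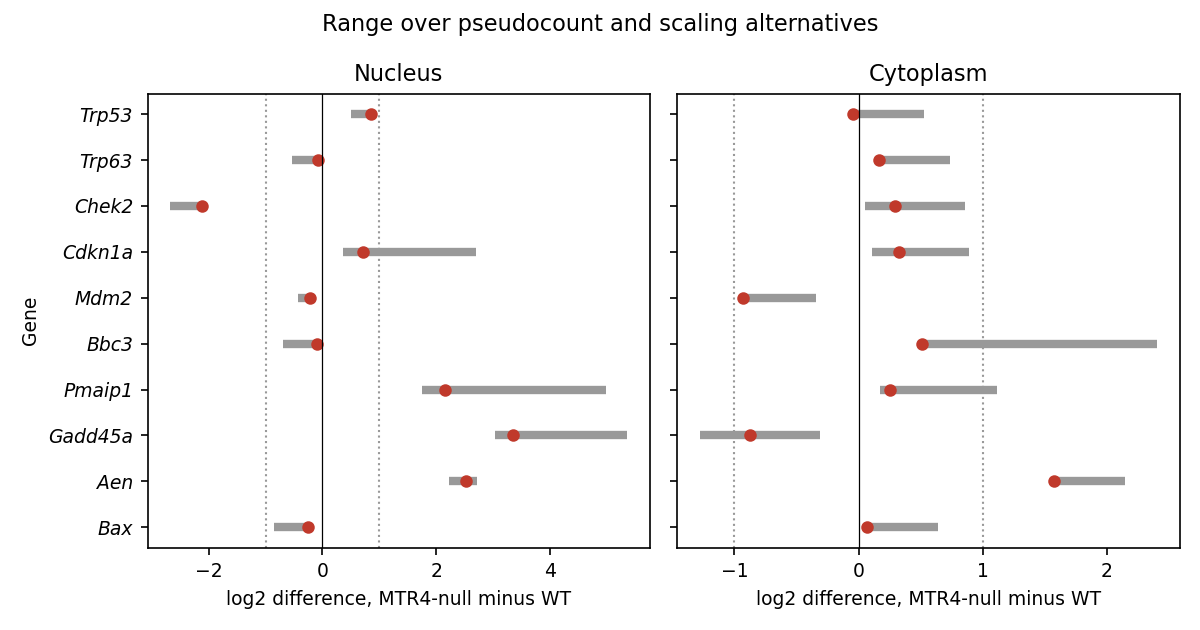
Genotype difference of each gene, MTR4-null minus WT in log2(FPKM + 1), as reported (red points) and its range over the change of pseudocount and the alternative scalings (grey bars), in the nucleus and the cytoplasm; dotted lines mark 2-fold. The nuclear bars of Aen, Gadd45a, Pmaip1 and Chek2 stay outside the dotted lines throughout, and those of Bbc3 in the cytoplasm and Cdkn1a in the nucleus, both under 1 FPKM in every column, cross one, as do those of Gadd45a and Pmaip1 in the cytoplasm.

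Other measures moved along with the nuclear result. Of the 8 theca and stroma markers 3 were higher by at least 2-fold in MTR4-null nuclei: Acta2 was listed at 0 FPKM in WT nuclei and 3.98 in MTR4-null nuclei, Dcn at 0 and 2.36, and Pdgfra at 0.173 and 1.71. Those FPKM are of the order of Pmaip1. Among the granulosa markers 4 were higher there and 3 lower, with Kitl at 0.336 and 4.14 FPKM and Cyp11a1 at 21.3 and 1.47. In the cytoplasm 0 of 8 stroma markers were at least 2-fold apart, and 0 of 14 granulosa markers were higher and 2 lower. Of the 13 oocyte markers, 1 was higher and 0 lower in the nucleus, and 0 were higher and 4 lower in the cytoplasm. The shares over all genes given above (23.9% higher and 12.3% lower in the nucleus, 15.0% and 21.4% in the cytoplasm) apply beside these counts too. Base composition moved with genotype too: with coding genes sorted into 5 groups of rising GC content in the longest transcript, the median nuclear difference went from -0.07 to 0.60. Pmaip1, at 42.1% GC, belongs to the lowest group, Gadd45a (49.8%) and Aen (51.6%) to the middle one, whose median was 0.16, and Bax (63.5%) and Bbc3 (65.2%) to the highest. With each gene centred on its GC group, Aen, Gadd45a and Chek2 were still past 2-fold. So was Pmaip1, which passed the filter through MTR4-null nuclei alone. The part of other cell types in these differences was not tested.

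Nucleus and cytoplasm were then compared within each genotype. In WT, 1 member was at least 2-fold higher in the nucleus (Chek2, a log2 difference of 1.72), beside 12.4% of all genes, and 1 lower (Gadd45a, -1.79), beside 4.71%. In MTR4-null, 2 were higher in the nucleus, Gadd45a at 2.45 and Pmaip1 at 1.81, beside 17.0% of all genes, and 0 were lower, beside 1.84%. Chek2 and Gadd45a thus sat on opposite sides of 0 in WT and MTR4-null. The Trp63 values were -0.02 in WT and -0.26 in MTR4-null, the latter going down to -0.95 over the alternatives. The comparisons of compartments share their columns with those of genotype and add no independent evidence.

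The count in MTR4-null depended on scaling, as the median over all genes kept was 0.52 there. After centring on that median, 4.96% of all genes were higher in the nucleus and 5.66% lower, and Bax (-1.47) and Chek2 (-1.21) became at least 2-fold lower in the nucleus. Gadd45a remained at least 2-fold higher there under every scaling, with a lowest value of 1.83. Pmaip1 did so too, with a lowest value of 1.19. As it passed the filter through the MTR4-null nucleus alone, this adds no support.

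**Figure D4:**
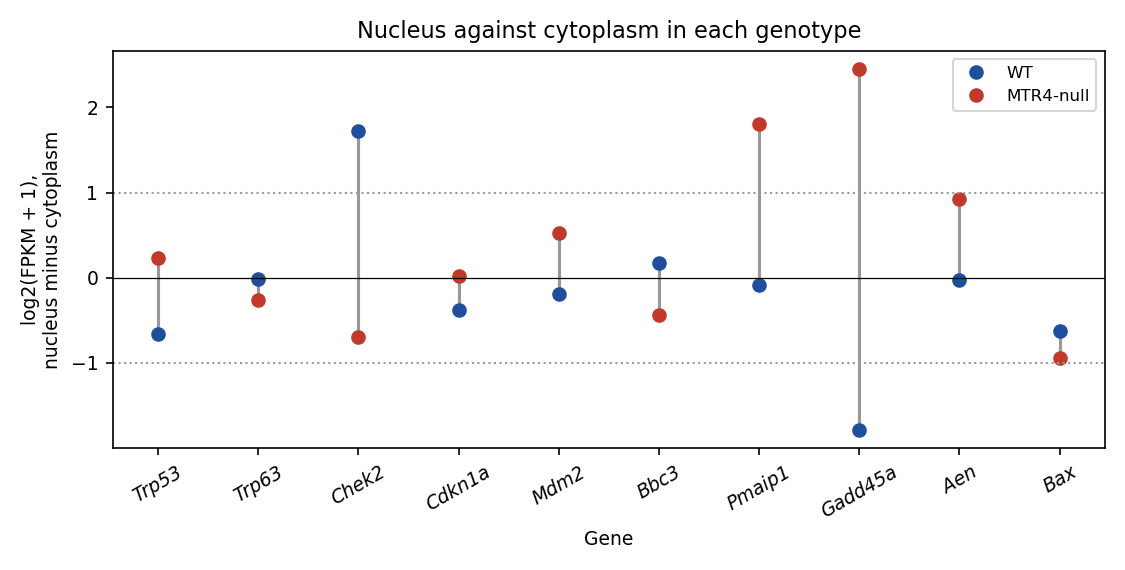
Difference in log2(FPKM + 1), nucleus minus cytoplasm, for each gene in WT (blue) and MTR4-null (red), joined by a line; dotted lines mark 2-fold. Chek2 goes from 1.72 in WT to -0.69 in MTR4-null and Gadd45a from -1.79 to 2.45, while Trp63, Bax and Cdkn1a move least.

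The order of levels differed between the nuclei of both genotypes. In the WT nucleus Mdm2 (49.1 FPKM) was followed by Trp53, Bax, Trp63 and Chek2 (12.7, 12.6, 10.6 and 9.40), then Aen (4.76), with the remaining 4 under 0.2 FPKM. In the MTR4-null nucleus Aen came second behind Mdm2 and Gadd45a next after Trp53. Pmaip1, last in WT nuclei, stood above Chek2 there, at 3.50 against 1.38 FPKM. With no spread between libraries, whether neighbours such as Trp53 and Bax differ cannot be said.

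Profiles over the 4 columns were also compared across genes, by the distance between their log2(FPKM + 1) values, leaving out predicted gene models and small RNA genes. The nearest gene to Mdm2 was Tmem57 (distance 0.08) and the nearest to Trp53 was Egln2 (0.18). Arl6ip6 was nearest to Trp63 (0.20), Ppif to Aen (0.22), Nop10 to Bax (0.28) and Cdadc1 to Chek2 (0.34). For Gadd45a, the nearest profile was that of Mxd3, at 0.70, the most distant of these pairs. Cdadc1 stood at 8.23, 1.75, 2.65 and 2.87 FPKM in WT nuclei, MTR4-null nucleus, WT cytoplasm and MTR4-null cytoplasm, so the course of Chek2 was not confined to it.

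The wider pathway was described through 4 lists, whose counts stand beside 23.9% of all genes higher and 12.3% lower in the nucleus, and 15.0% higher and 21.4% lower in the cytoplasm. Of 26 genes of damage sensing and its kinases, all kept, 4 were at least 2-fold higher and 1 lower in MTR4-null nuclei (median 0.19). Centring on all genes turned the median to -0.02 and gave 2 higher and 1 lower, beside 18.9% and 16.4% of all genes. Quantile normalization gave 1 higher and 2 lower, beside 16.9% and 17.6%. The share of higher genes was below that of all genes. Rad9, a subunit of the clamp that senses damaged DNA, stood at 3.997 FPKM in WT nuclei, 22.1 in MTR4-null nuclei, 6.13 in WT cytoplasms and 16.9 in MTR4-null cytoplasms. It was high in both MTR4-null columns, as Aen was. Hus1, another subunit of that clamp, stood at 9.92 and 26.8 FPKM in the nuclei and at 23.02 and 13.8 in the cytoplasms, WT first. H2afx, the histone variant phosphorylated at breaks, stood at 131 and 277 FPKM in the nuclei, and Csnk1d, a casein kinase 1 gene, at 22.8 and 53.9. Over the alternatives the nuclear differences of H2afx, Csnk1d and Hus1 went down to 0.47, 0.85 and 0.998, under 2-fold. That of Rad9 stayed at 1.90 or more.

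Brca1, needed for repair by homologous recombination, had the most negative difference of this list in both compartments. Brca1 stood at 39.5 FPKM in WT nuclei, 10.3 in MTR4-null nuclei, 37.4 in WT cytoplasms and 7.83 in MTR4-null cytoplasms, low in both MTR4-null columns. In the cytoplasm 6 of the 26 were lower, about the share over all genes (21.4%), and 1 was higher (median -0.70). Among the lower ones were Nbn at 9.61 and 2.98 FPKM, Clspn at 33.3 and 13.1 and Rad50 at 34.8 and 14.3. Centred by the median log ratio, 1 was lower and 2 were higher, beside 6.18% and 25.8% of all genes. As deposited, the kinase genes Atm, Atr and Chek1 were less than 2-fold apart between genotypes. In the nuclei Atm stood at 5.75 and 3.20 FPKM, Atr at 8.40 and 11.9, and Chek1, whose kinase acts beside CHK2, at 91.6 and 100.3. In the cytoplasms Atm stood at 2.74 and 2.61 FPKM, Atr at 10.6 and 6.58, and Chek1 at 117.9 and 66.7. The nuclear difference of Atm went down to -1.11 over the alternatives.

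Of 25 regulators of the p53 family, 24 passed the filter. In MTR4-null nuclei 6 were higher and 2 lower, beside 23.9% and 12.3% of all genes, and in the cytoplasm 4 were higher and 8 lower, beside 15.0% and 21.4%. Their medians of 0.14 and -0.61 became -0.07 and -0.04 once the columns were centred by the median log ratio. The nucleus then had 6 higher and 4 lower, beside 18.8% and 16.6% of all genes. The cytoplasm had 5 higher and 4 lower, beside 25.8% and 6.18%. Centring on GC groups gave 3 higher and 1 lower of 22 in the nucleus, beside 17.1% and 14.9%. Mdm4, the partner of MDM2 in holding p53 back, was by far more abundant than Mdm2. It stood at 383 FPKM in WT nuclei, 197 in MTR4-null nuclei, 433 in WT cytoplasms and 115 in MTR4-null cytoplasms. Both MTR4-null columns were the lower ones, with log2 differences of -0.96 and -1.90. Trp53bp2, encoding a protein that steers p53 towards death genes, stood at 0.0918, 7.73, 0.445 and 9.20 FPKM in the same order of columns, with a cytoplasmic difference of 2.82. It passed the filter through the MTR4-null columns alone, so its differences are tied to passing.

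More of that list concerns the family directly. Trp73, the third family member, stood at 2.66 FPKM in WT nuclei, 9.35 in MTR4-null nuclei, 3.14 in WT cytoplasms and 3.92 in MTR4-null cytoplasms, a difference of 1.501 in the nucleus and 0.25 in the cytoplasm. Ppm1d, a phosphatase that ends the response, stood at 11.4 and 29.2 FPKM in the nuclei and at 16.98 and 17.03 in the cytoplasms. Cables1 stood at 16.5 and 43.7 FPKM in the nuclei and at 6.47 and 39.9 in the cytoplasms. Sirt1, a deacetylase of p53, was at 28.2 and 71.2 FPKM in the nuclei and 29.2 and 62.98 in the cytoplasms. Ppp1r13l, an inhibitor of p53, was at 2.32 and 8.28 FPKM in the nuclei. Over the alternatives the nuclear differences of Trp73, Ppm1d, Cables1 and Ppp1r13l went down to 0.90, 0.96, 0.75 and 0.88, under 2-fold. That of Sirt1 stayed at 1.095 or more. On the lower side, Wwp1 stood at 6.04 and 2.41 FPKM in the nuclei and 5.46 and 0.939 in the cytoplasms, and Trp53inp1 at 24.7 and 7.40 in the cytoplasms.

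Other p53 targets went both ways. Of 24 found in the table, 20 passed the filter. In MTR4-null nuclei 6 were higher and 2 lower, beside 23.9% and 12.3% of all genes, counts that no scaling of the columns changed. Centring on GC groups gave 5 and 3, beside 17.1% and 14.9%. In the cytoplasm 1 was higher and 5 lower, beside 15.0% and 21.4% of all genes. Centring by the median log ratio turned these to 8 and 0, beside 25.8% and 6.18%. Sfn, a G2 checkpoint protein, stood at 0.0708 FPKM in WT nuclei, 6.97 in MTR4-null nuclei, 2.15 in WT cytoplasms and 2.45 in MTR4-null cytoplasms. Its lowest column was the WT nucleus and its highest the MTR4-null nucleus, as for Gadd45a. Ccng1, a classic p53-induced cyclin, stood at 1.71 and 8.51 FPKM in the nuclei and 1.75 and 3.21 in the cytoplasms. Ei24 stood at 9.73 and 35.5 FPKM in the nuclei and Ephx1 at 0.703 and 5.39. At 0.0178 and 0.0751 FPKM in the cytoplasms, Ephx1 passed the filter through MTR4-null nuclei alone. Its place among the 6 higher genes is therefore tied to passing. Plk3, among the lower genes in both compartments, passed through the WT columns alone, so its differences are tied to passing too. Trp53i13 was at 12.05 and 42.0 FPKM in the nuclei and 10.9 and 29.6 in the cytoplasms. Rrm2b, the p53-induced subunit of ribonucleotide reductase, was lower in both, at 62.1 and 27.04 FPKM in the nuclei and 67.1 and 22.99 in the cytoplasms. Btg2 stood at 7.67 and 3.10 FPKM in the cytoplasms and Ercc5 at 10.6 and 4.57.

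Genes of the BCL2 family, to which Bbc3, Pmaip1 and Bax belong, and of the apoptosis machinery made up the last list. Of its 32 genes 24 passed the filter. In MTR4-null nuclei 3 were higher and 4 lower, beside 23.9% and 12.3% of all genes, with a median of 0.38, or -0.01 after centring on GC groups. In the cytoplasm 6 were higher and 2 lower, beside 15.0% and 21.4%. Bmf, 1 of those 6, passed the filter through MTR4-null cytoplasms alone, at 1.74 FPKM. Its place among the higher genes is therefore tied to passing. The cytoplasmic median of 0.26 ranged from -0.06, with the filter at 5 FPKM, to 0.83, centred by the median log ratio. Diablo, which lifts the block on caspases, stood at 7.78 FPKM in WT nuclei, 53.5 in MTR4-null nuclei, 15.5 in WT cytoplasms and 18.9 in MTR4-null cytoplasms. Casp9, the initiator caspase of the mitochondrial route, stood at 3.21 and 10.8 FPKM in the nuclei. Mcl1, the survival protein that NOXA binds, stood at 9.68 and 31.7 FPKM in the nuclei and 7.35 and 29.3 in the cytoplasms, high in both MTR4-null columns. In the cytoplasm the death agonist Bad was at 2.71 and 7.71 FPKM and the survival gene Bcl2l2 at 1.41 and 6.36. Bik, another BH3-only gene, was lower in both compartments, at 4.72 and 1.81 FPKM in the nuclei and 8.16 and 1.78 in the cytoplasms. Tnfrsf10b, a death receptor, stood at 25.9 and 7.59 FPKM in the nuclei and at 0.515 and 2.37 in the cytoplasms.

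**Figure D5:**
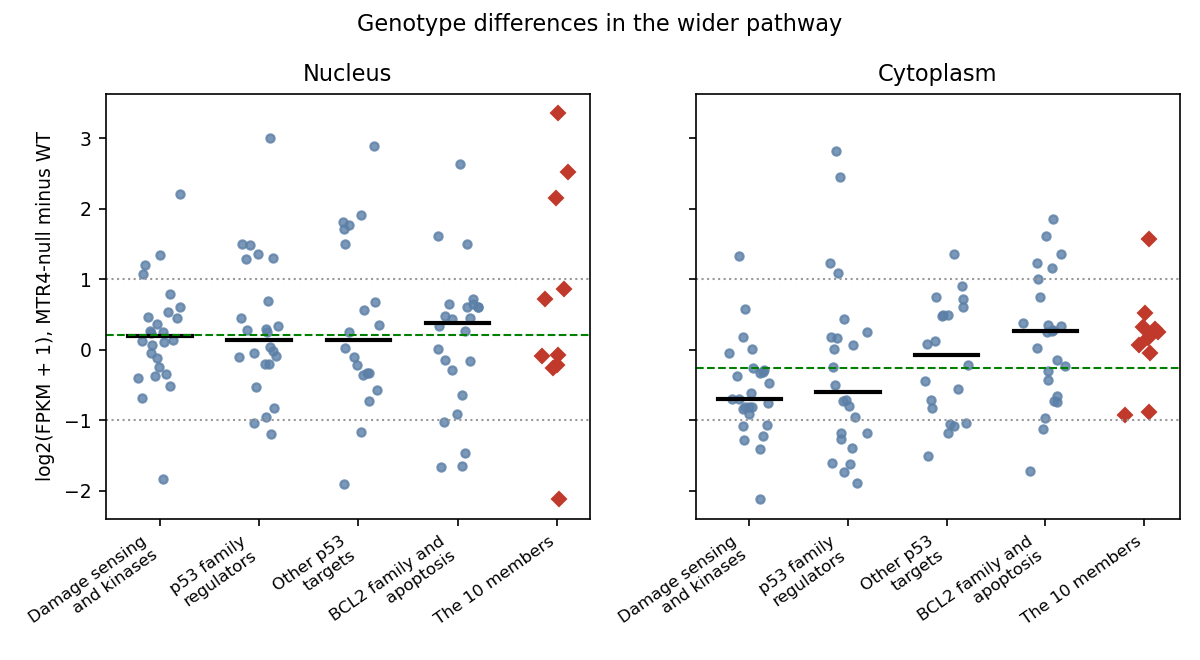
Difference in log2(FPKM + 1), MTR4-null minus WT, for each gene of the 4 pathway lists that passed the filter (blue points, black bars at the list medians) and for the 10 members (red diamonds), in the nucleus and the cytoplasm; the dashed green line is the median of all 14270 genes kept and dotted lines mark 2-fold. In the nucleus the list medians, 0.14 to 0.38, sit near the line at 0.21 and in the cytoplasm the first 2 lists lie under it.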

How the data were processed

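The FPKM values were deposited by the authors as 1 table, with 1 column for each of 4 groups. Per the submitters' processing notes, TopHat2 2.1.1, Cufflinks 2.2.1 and mm9 were used, with no settings named. No source used here says how libraries were combined: 39.0% to 58.9% of values above 0 end in 333 or 667, the pattern of means of 3 values, although the labels list 3 libraries for the WT nucleus alone. The last row, without a gene name, equals the column sums and was left out. Depth is unknown.

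Differences of log2(FPKM + 1) were computed in Python 3.11.15 with pandas 2.3.3 and checked on simulated columns. Genes at 1 FPKM or more in at least 1 column were kept. The limma test planned for columns per library could not be run. Members and lists were chosen with earlier results of these data known. Named from each list were up to 5 genes per genotype comparison at 5 FPKM or more and at least 2-fold apart, by size, plus Trp73, Mdm4, Atm, Atr, Chek1 and Ppm1d. The gene with the smallest distance was named for each member at 5 FPKM or more. GC content and overlaps came from GENCODE M21 (GRCm38), by symbol, with GC content found for 83.2% of genes kept. 7 alternatives planned and 1 added after seeing the data were run.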

Additional observations from a re-analysis of the deposited data

Results flagged for a closer look

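The genotype differences of 2 members had opposite signs in nucleus and cytoplasm, with at least 2-fold in one of them, as did 12.5% of all 14270 genes kept. Gadd45a had a log2 difference, MTR4-null minus WT, of 3.36 in the nucleus and -0.88 in the cytoplasm. For Chek2 the values were -2.12 in the nucleus and 0.29 in the cytoplasm. The difference between the compartments was not tested, as each group has 1 column. In FPKM, nucleus first, Gadd45a stood at 0.170 and 3.04 in WT and at 11.03 and 1.20 in MTR4-null. Chek2 was at 9.40 and 2.15 FPKM in WT and at 1.38 and 2.85 in MTR4-null.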

How the results depend on the processing

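No paired analysis was possible because the columns are group values without replicate numbers, and leaving out single libraries was not run for the same reason. Of 64 counts of members under the alternatives, 54 were within 1.5 times the count as reported, and of 240 single differences 21 crossed the 2-fold line and 0 called ones changed sign. In the cytoplasm a pseudocount of 0.1 gave 2 members higher (Aen and Pmaip1) and 1 lower (Gadd45a), beside 21.5% and 27.8% of all genes. Quantile normalization gave 1 lower (Gadd45a), beside 15.2%. In MTR4-null, nucleus against cytoplasm, the filter at 5 FPKM, which leaves Pmaip1 out, gave 1 member higher, beside 18.2%. There a pseudocount of 0.1 gave 1 lower (Bax), beside 4.39%. Centring by the median log ratio, on all genes kept or on GC groups each gave 2 lower (Chek2 and Bax). So did quantile normalization and rescaling without small RNA genes. Over these 5 settings 4.86% to 7.01% of all genes were lower. With a pseudocount of 0.1, the nuclear genotype difference of Cdkn1a was 2.71, which rests on values under 1 FPKM. Over all genes, the nuclear genotype counts of 3417 higher and 1753 lower ranged over 2028 to 4147 and 1038 to 2517, and the cytoplasmic 2135 and 3047 over 1529 to 3686 and 882 to 3967. For nucleus against cytoplasm the ranges were 902 to 2687 higher and 433 to 1367 lower in WT (1775 and 672 as reported), and 444 to 3654 and 116 to 1001 in MTR4-null (2428 and 262).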
